A study of Aloe vera with 7 samples.

Results

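Photosystem II is the plastid complex that uses light to take electrons from water. Its reaction centre is a pair of chlorophyll-binding proteins, D1 and D2, encoded by psbA and psbD. The inner antenna proteins CP47 and CP43, encoded by psbB and psbC, bring light energy to that pair, and psbE and psbF encode the alpha and beta subunits of cytochrome b559, a haem protein beside the reaction centre. All of these genes lie in the plastid genome of land plants, where psbA is usually transcribed alone and the others belong to multi-gene transcription units. D1 is damaged by light and replaced continually in leaves, whereas root plastids of soil-grown plants carry little photosystem II.

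The probe sets described here were those annotated to a single gene with the symbol psbA, psbB, psbC, psbD, psbE or psbF and listed among the deposited values. This rule found 6 genes, each with 1 probe set, of 10991 genes with such a probe set and 18810 probe sets tested. They were measured in Aloe vera leaf RNA (3 arrays) and root RNA (3 arrays) from a series of 7 arrays, the remaining 1 holding leaf genomic DNA. The labels describe a mature plant bought at a garden centre and kept indoors at room temperature. Whether the replicates are separate plants is not stated. A p-value here reflects no more than the spread among these RNA samples, which may be technical. Since ATH1 probes are built from Arabidopsis thaliana sequence, a signal here is Aloe RNA binding to a related species' probes. How well each Aloe gene matches them was not analysed here.

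Values are on a log2 scale on which each probe set has a median of 0 across the 6 RNA arrays. No signal level was given, so values of different genes are not levels that can be ranked, and only differences between arrays of the same gene are used. Where leaf and root do not overlap, this centring puts the lowest leaf value and the highest root value at equal distances from 0. Array medians lay between -0.014 and 0.017 log2, and the median standard error of a leaf minus root difference was 0.26 log2 over all probe sets. Of all probe sets, 45.5% had a higher mean in leaf. With 3 arrays per tissue, the number of arrays limited the precision.

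The comparison of leaf with root asked whether RNA binding the photosystem II core probes was unequal between the tissues. The inner antenna genes psbB and psbC were 12.5-fold and 13.5-fold higher in leaf and passed the unpaired test. With arrays blocked by replicate number, psbC passed and psbB did not. The reaction centre genes psbA and psbD were 5.51-fold and 5.70-fold higher in leaf with no overlap between tissues, but with such a spread between leaf arrays that they did not pass. The cytochrome b559 genes psbE and psbF overlapped between tissues, at 1.26-fold and 1.17-fold.

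Of the 6 genes, 2 passed at an adjusted p under 0.05 in limma as higher in leaf and 0 as higher in root, where 0.276% of all probe sets passed as higher in leaf. At an unadjusted p under 0.05, 4 of the 6 were higher in leaf, against 4.88% of all probe sets. In the same 4, every leaf value lay above every root value, which held for 6.87% of all probe sets. Blocked by replicate number, 1 of the 6 passed, psbC, against 0.282% of all probe sets. Fewer cells with chloroplasts and less of these RNAs per cell cannot be told apart in bulk tissue.

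**Figure D1:**
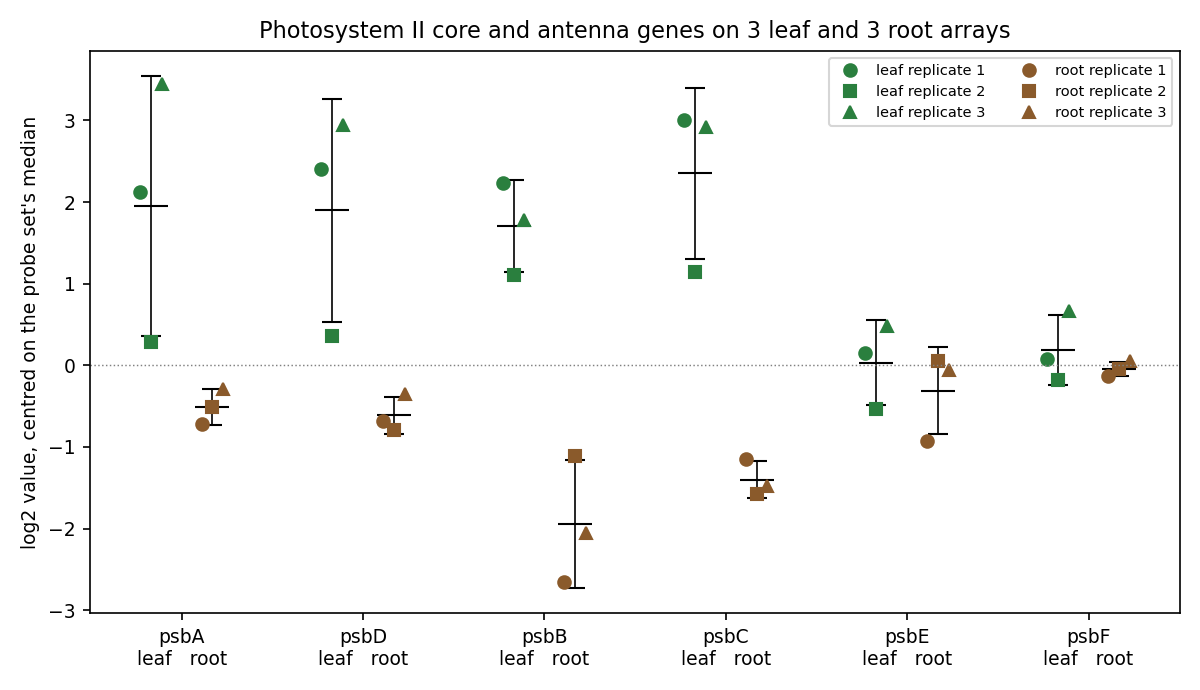
Log2 values of the 6 genes, each with its 6-array median set to 0 (vertical axis), with leaf arrays in green left of root arrays in brown. Symbols mark replicates 1 to 3, and black bars give the mean and SD over 3 arrays. Leaf and root values are apart for psbA, psbD, psbB and psbC and overlap for psbE and psbF, and leaf replicate 2 is the lowest leaf array for each gene.

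The antenna gene psbB (probe set 244972_at), for CP47, stood at 2.23, 1.11 and 1.78 log2 on leaf replicates 1 to 3, against -2.66, -1.11 and -2.06 log2 on root replicates 1 to 3. The lowest leaf array was thus 4.64-fold above the highest root array. Leaf averaged 1.71 ± 0.57 log2 and root -1.94 ± 0.78 log2 (SD, n = 3 each). The leaf minus root difference was 3.65 ± 0.44 log2 (SE), with a 95% confidence interval of 6.20-fold to 25.3-fold and an adjusted p of 0.0236 in limma. Blocked by replicate number, the adjusted p was 0.0508, which ended the call.

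The antenna gene psbC (245003_at), for CP43, stood at 3.002, 1.15 and 2.92 log2 on the leaf arrays and at -1.15, -1.58 and -1.48 log2 on the root arrays. The root arrays lay close together (SD 0.22 log2) and the leaf arrays further apart (SD 1.05 log2). Leaf averaged 2.36 log2 and root -1.40 log2. The difference was 3.75 ± 0.48 log2 (SE), with a 95% confidence interval of 6.27-fold to 29.1-fold and an adjusted p of 0.0289 in limma. Without leaf replicate 2 it was 4.36 log2, and under robust fitting with a variance trend the call ended (adjusted p = 0.0939).

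With 1 array left out, psbB passed in 2 of 6 fits and psbC in 1 of 6. The adjusted p over those fits ranged from 0.020 to 0.136 for psbB and from 0.0027 to 0.15 for psbC. Leaf was higher in each of these fits, by 3.29 to 4.06 log2 for psbB and by 3.43 to 4.36 log2 for psbC. By size of the leaf minus root difference, psbC ranked 12 and psbB 13 among the 18810 probe sets.

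The reaction centre gene psbA (245047_at), for D1, stood at 2.12, 0.29 and 3.45 log2 on the leaf arrays and at -0.72, -0.51 and -0.29 log2 on the root arrays. The leaf arrays spanned 3.16 log2 and the root arrays 0.44 log2. Leaf averaged 1.95 ± 1.59 log2 and root -0.51 ± 0.22 log2 (SD, n = 3 each). The difference was 2.46 ± 0.69 log2 (SE), with a 95% confidence interval of 1.83-fold to 16.6-fold, and did not pass (adjusted p = 0.2795 in limma). Without leaf replicate 2 it was 3.29 log2 (adjusted p = 0.0527), and without leaf replicate 3 it was 1.71 log2 (adjusted p = 0.462).

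The partner gene psbD (245002_at), for D2, was close to psbA on each array. It stood at 2.402, 0.35 and 2.94 log2 on the leaf arrays and at -0.69, -0.79 and -0.35 log2 on the root arrays. Leaf averaged 1.90 ± 1.36 log2 and root -0.61 ± 0.23 log2 (SD, n = 3 each). The difference was 2.51 ± 0.60 log2 (SE), with a 95% confidence interval of 2.18-fold to 14.9-fold, and did not pass (adjusted p = 0.193 in limma). Without leaf replicate 2 it was 3.28 log2 and passed (adjusted p = 0.0132), and with any other array left out it did not. The lowest leaf array exceeded the highest root array 1.63-fold for psbD and 1.49-fold for psbA. By size of difference, psbD ranked 36 and psbA 38 among all probe sets.

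The cytochrome b559 gene psbE (244964_at) stood at 0.15, -0.54 and 0.48 log2 on the leaf arrays and at -0.93, 0.053 and -0.053 log2 on the root arrays. Leaf replicate 2 lay below root replicates 2 and 3. The difference was 0.34 ± 0.36 log2 (SE), with a 95% confidence interval of 0.713-fold to 2.24-fold and an adjusted p of 0.843 in limma. The gene psbF (244963_at) stood at 0.074, -0.18 and 0.66 log2 on the leaf arrays and at -0.13, -0.048 and 0.048 log2 on the root arrays, where leaf replicate 2 lay below every root array. Its difference was 0.23 ± 0.26 log2 (SE), with a 95% confidence interval of 0.778-fold to 1.77-fold and an adjusted p of 0.857 in limma. With 1 array left out, the psbE difference lay between 0.031 log2 (without root replicate 1) and 0.62 log2 (without leaf replicate 2). Without leaf replicate 3 the psbF difference was -0.0085 log2. These intervals exclude the fold differences of psbB and psbC, but a p above the threshold is no evidence that leaf and root hold the same amount. The deposited values do not tell whether either gene's signal exceeded background.

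The 6 genes were compared with each other by taking, on each array, the value of one gene minus that of another and setting leaf against root, for 15 pairs. Exact permutation tests of 3 against 3 arrays cannot give a two-sided p below 0.1, so no pair could pass. In 9 pairs the leaf and root arrays did not overlap, with p at that limit (0.167 after Benjamini-Hochberg adjustment over the 15). These were each of psbA, psbB, psbC and psbD against each of psbE and psbF, and psbC against psbD. The leaf minus root difference of psbB exceeded that of psbE by 3.31 ± 0.34 log2 (SE), and that of psbC exceeded that of psbF by 3.53 ± 0.49 log2. For the reaction centre genes, psbA exceeded psbE by 2.12 ± 0.66 log2 and psbD exceeded psbF by 2.28 ± 0.60 log2. The antenna gene psbC exceeded psbD by 1.24 ± 0.31 log2.

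For genes whose proteins work as a pair, the value of one gene minus that of the other overlapped between leaf and root arrays. The exact tests could separate no pair of genes, so they say nothing particular about these. The leaf minus root difference of psbA was below that of psbD by 0.05 log2 (-0.05 ± 0.25 log2, SE, exact p = 0.8). For psbB against psbC it was -0.11 ± 0.66 log2 (exact p = 0.9) and for psbE against psbF 0.11 ± 0.30 log2 (exact p = 0.9). Such p-values do not show that the genes of a pair are alike. Between the antenna and the reaction centre genes, psbA against psbB, psbA against psbC and psbB against psbD overlapped between tissues (exact p = 0.2, adjusted 0.25). The profiles of psbA and psbD over the 6 arrays differed by a root mean square of 0.25 log2, the smallest of the 15 pairs, followed by 0.30 log2 for psbE and psbF, 0.66 log2 for psbB and psbC and 0.70 log2 for psbC and psbD.

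For psbA, psbC and psbD, leaf replicate 2 carried much of the spread between leaf arrays. The SD was larger in root than in leaf for psbB (0.78 against 0.57 log2) and psbE (0.54 against 0.52 log2). Leaf replicate 2 held the lowest leaf value in 6 of 6 genes. Its value minus the mean of the other leaf arrays was -2.50 log2 for psbA, -2.32 log2 for psbD, -1.81 log2 for psbC, -0.90 log2 for psbB, -0.85 log2 for psbE and -0.55 log2 for psbF. The mean of the 6 genes was 1.66, 0.36 and 2.04 log2 on leaf replicates 1 to 3, against -1.05, -0.66 and -0.70 log2 on root replicates 1 to 3. Among 53 other plastid genes, leaf replicate 2 was the lowest leaf array in 35 (66.0%), against 34.1% of all probe sets. Its array median was -0.010 log2. The array's control probe set for cytosolic 25S ribosomal RNA stood at -4.72 log2 on leaf replicate 2, against -0.55 and 0.55 log2 on leaf replicates 1 and 3 and -0.90 to 1.08 log2 on root arrays. The 5S control stood at -0.13 log2 on leaf replicate 2, within the range of -0.14 to 0.07 log2 on the other arrays. The part of these controls in the result was not tested.

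Same-numbered arrays were also compared. Leaf exceeded root at each number for psbA, psbB, psbC and psbD, which follows from their lack of overlap. For psbE and psbF it did so at numbers 1 and 3 but not at number 2 (-0.59 and -0.13 log2). For psbB the differences at numbers 1 to 3 were 4.89, 2.21 and 3.84 log2, and for psbC they were 4.15, 2.72 and 4.39 log2. For psbA they were 2.85, 0.80 and 3.74 log2, and for psbD 3.09, 1.15 and 3.30 log2. Number 2 gave the smallest difference for each gene.

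**Figure D2:**
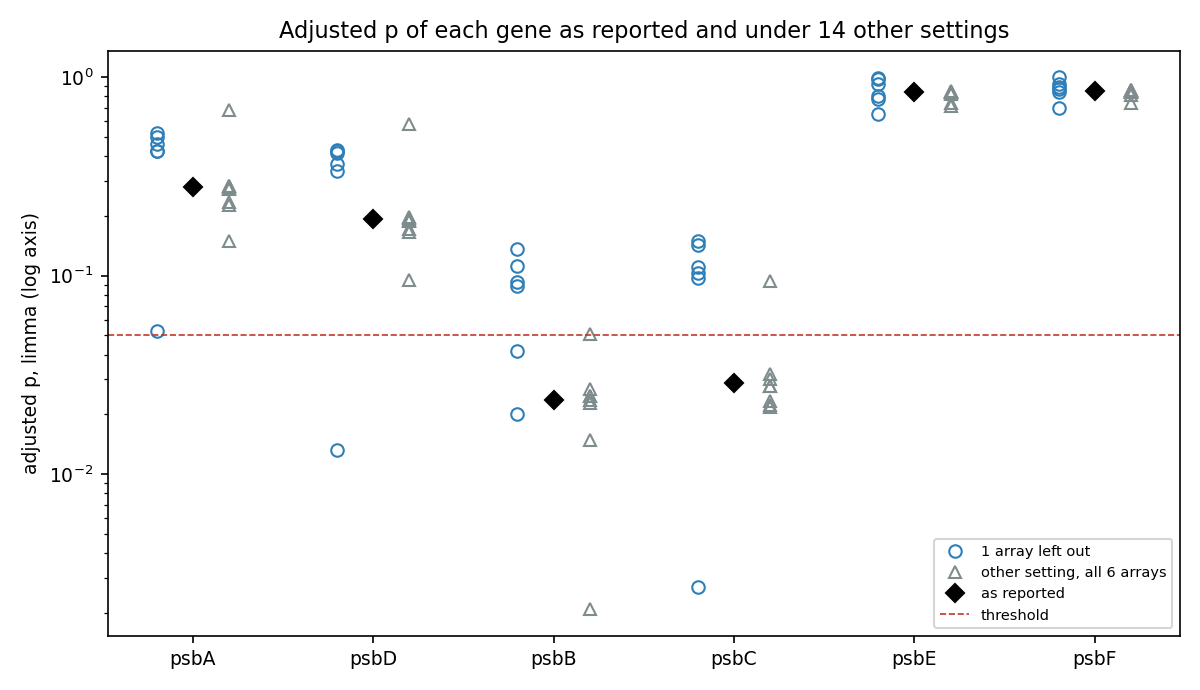
Adjusted p of each gene in limma (vertical log axis) as reported (black diamonds), with 1 array left out (blue circles) and under other settings with all 6 RNA arrays (grey triangles). The dashed line is the threshold of 0.05. The values of psbB and psbC lie on both sides of it, psbD crosses it in 1 fit, without leaf replicate 2, and psbA, psbE and psbF stay above it.

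In land plant plastids the antenna and cytochrome genes are co-transcribed with neighbours, and the long transcripts are then cut into smaller RNAs. The psbB unit also holds psbH, for a small photosystem II subunit, and petB and petD, for cytochrome b6 and subunit IV of the cytochrome b6f complex. Of 5 genes listed for this unit, 4 were measured. The gene psbH was as unequal as psbB: it stood at 2.38, 2.16 and 1.65 log2 on the leaf arrays and at -2.36, -1.83 and -1.65 log2 on the root arrays, a difference of 4.01 ± 0.28 log2 (SE, adjusted p = 0.00229 in limma). By contrast, petB and petD overlapped between tissues, with differences of 0.47 ± 0.29 and 0.07 ± 0.47 log2 (adjusted p = 0.699 and 0.985). Taken per array, psbB minus petB was 0.69 to 2.18 log2 in leaf and -1.94 to -1.32 log2 in root, and psbB minus petD was 1.62 to 2.14 log2 in leaf and -2.52 to -1.01 log2 in root. Neither overlapped between tissues, whereas psbB minus psbH did, with a difference of -0.36 ± 0.51 log2. These neighbour comparisons were chosen after their values were seen and carry no test.

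The unit of psbD and psbC is followed by psbZ, for a further small subunit of photosystem II. It stood at 3.16, 1.96 and 2.96 log2 on the leaf arrays and at -2.12, -2.12 and -1.96 log2 on the root arrays. Its difference of 4.76 ± 0.32 log2 (SE, adjusted p = 0.00206 in limma) was above that of psbC by 1.01 log2 and above that of psbD by 2.25 log2. Leaf replicate 2 was the lowest leaf array for all 3 genes.

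The unit of psbE and psbF continues with psbL and psbJ, for small subunits of photosystem II. Each of the 4 genes overlapped between tissues, with leaf minus root differences from 0.12 to 0.45 log2. In limma 0 of the 4 passed and 0 had an unadjusted p under 0.05. Of all probe sets, 0.276% passed as higher in leaf and 4.88% had such an unadjusted p, so 0 of 4 is near these shares. The gene psbL stood at 0.49, -0.65 and 0.25 log2 on the leaf arrays and at -0.26, -0.065 and 0.065 log2 on the root arrays. The gene psbJ stood at 0.45, -0.31 and 0.31 log2 on the leaf arrays and at -0.55, -0.72 and 0.37 log2 on the root arrays. Leaf replicate 2 was the lowest leaf array for all 4.

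**Figure D3:**
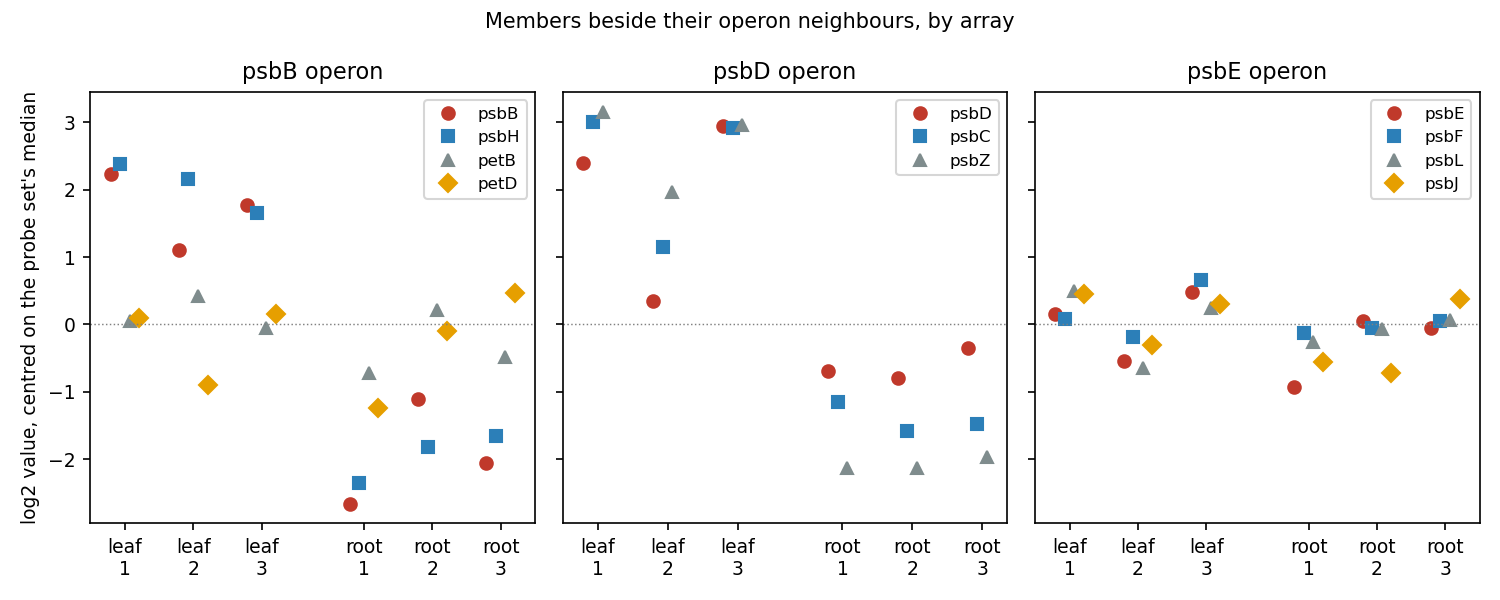
Log2 values by array for the genes of 3 plastid transcription units, each centred on its probe set's median (vertical axis), with leaf arrays left of root arrays in every panel. In the psbB unit, psbB and psbH are high in leaf and low in root while petB and petD overlap between tissues. In the psbD unit all 3 genes are apart between tissues, and in the psbE unit all 4 overlap.

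The lists of other plastid genes give the setting of these values. The 6 core and antenna genes had a median leaf minus root difference of 2.49 log2, and the small photosystem II subunits measured (6 of 10) had 2.25 log2, beside -0.03 log2 over all probe sets. Of those 6 small subunits, 3 passed as higher in leaf, where 0.276% of all probe sets did: psbZ, psbH and psbK (3.02 ± 0.27 log2, SE). Medians were 1.37 log2 for 5 cytochrome b6f genes, 1.305 log2 for 6 ATP synthase genes, 0.41 log2 for 6 genes of photosystem I and its assembly, 0.37 log2 for 8 genes of the NADH dehydrogenase-like complex and 0.23 log2 for 13 ribosomal protein genes. The 4 plastid RNA polymerase genes had a median of 0.36 log2, and 4 further plastid genes had 0.06 log2. In each of these lists, root averaged above leaf for 2 genes. Of the 53 other plastid genes, leaf averaged above root in 42 and below root in 11. Over these 53 the median was 0.49 log2, with 5 called higher in leaf and 0 in root. Beside the 3 small subunits these were ndhA, for a subunit of the NADH dehydrogenase-like complex (5.51 ± 0.73 log2, SE, adjusted p = 0.0327 in limma), and atpH, for the membrane ring subunit of ATP synthase (2.45 ± 0.26 log2, adjusted p = 0.0135). The gene rbcL, for the large subunit of Rubisco, differed by 0.71 ± 0.23 log2 (SE, adjusted p = 0.371 in limma). In 2 of the 53, atpA and ndhH, every root value lay above every leaf value, as in 1556 of all 18810 probe sets. The reverse held in 17 of the 53. The atpA difference was -1.16 ± 0.26 log2 (SE, adjusted p = 0.168 in limma), and that of ndhH was -0.47 ± 0.24 log2 (SE). Neither passed, and both were named after their values were seen. For cytochrome b6f, leaving out leaf replicate 1 gave a median of 0.88 log2, and leaving out leaf replicate 2 gave 2.02 log2. The ribosomal median was 0.151 log2 without leaf replicate 3, 0.388 log2 without leaf replicate 2 and 0.406 log2 without root replicate 2, and the photosystem I median was 0.615 log2 without leaf replicate 2.

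**Figure D4:**
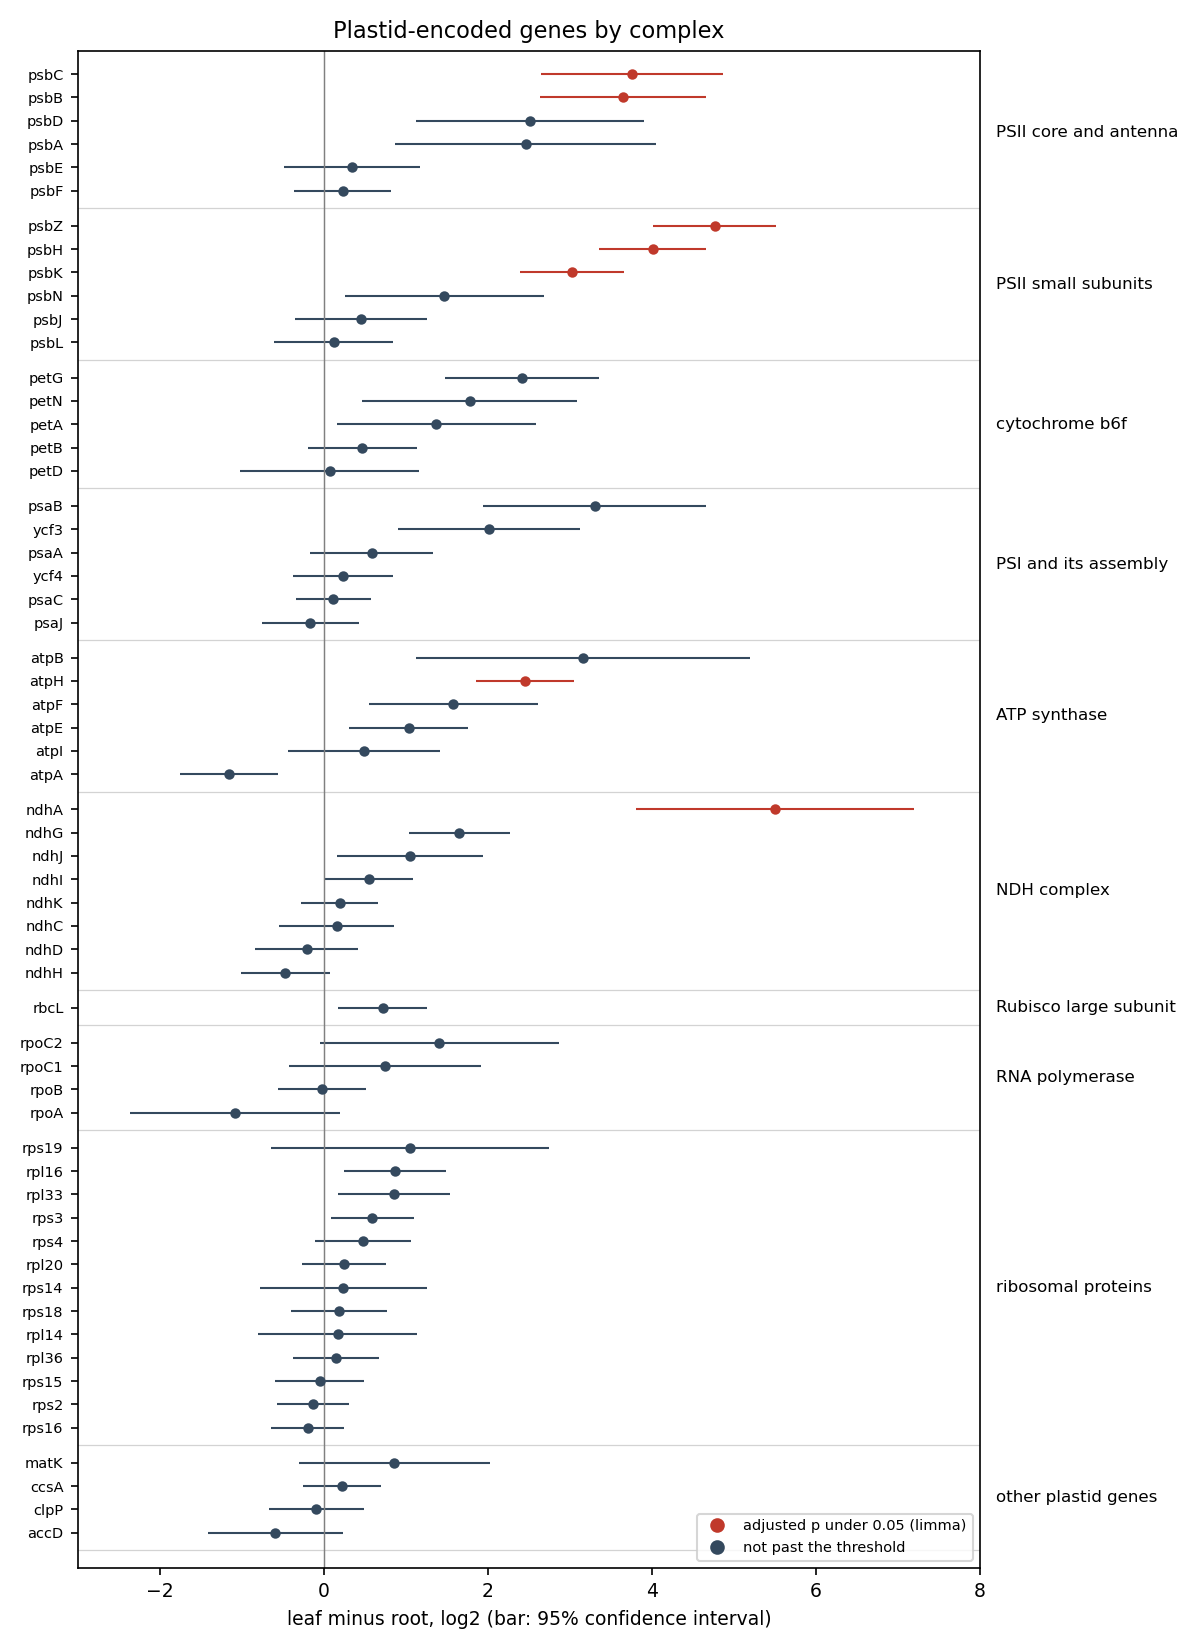
Leaf minus root difference in log2 (horizontal axis) of 59 plastid-encoded genes, grouped by complex, with 95% confidence intervals from limma. Red points passed at an adjusted p under 0.05. The intervals of psbC, psbB, psbD and psbA lie above 0, and those of psbE and psbF include it.

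Nuclear genes whose products work with these proteins were mostly without a single-gene probe set by name. Of 15 listed extrinsic and small subunits of photosystem II, 3 were measured, as were 3 of 15 light-harvesting antenna genes, 4 of 23 assembly and repair genes and 1 of 17 genes of plastid transcription and RNA processing. In limma 0 of these 11 passed, and 2 had an unadjusted p under 0.05 as higher in leaf, as did 4.88% of all probe sets. One was LPA1, which encodes a factor for photosystem II assembly in Arabidopsis. It stood at -0.022, 1.18 and 0.47 log2 on the leaf arrays and at -1.63, -1.50 and 0.022 log2 on the root arrays, a difference of 1.58 ± 0.49 log2 (SE, adjusted p = 0.337). Leaf and root overlapped for LPA1. The other was LHCB4.1, for a minor antenna protein that sits next to CP47, at 0.73 ± 0.23 log2 (adjusted p = 0.359). PSB27, a lumenal factor that binds CP43 during assembly and repair, differed by -0.51 ± 0.24 log2 (adjusted p = 0.571), and RPOTmp, a phage-type RNA polymerase of plastids and mitochondria, by -0.20 ± 0.30 log2 (adjusted p = 0.907).

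The tissue labels were set against nuclear markers, few of which were measured. Of 15 leaf markers 2 were measured, rubisco activase (RCA) and phosphoribulokinase (PRK), and averaged -0.014, 0.83 and 1.33 log2 on the leaf arrays and -0.58, -0.062 and -0.14 log2 on the root arrays. Leaf replicate 1, not 2, was the lowest leaf array for both. Of 14 root markers 2 were measured, EXPA7 and EXPA18, with differences of -0.08 log2 each, and of 6 guard cell markers 3 were measured, with differences from -0.25 to -0.02 log2. In limma 0 of these 7 marker genes passed and 2, RCA and PRK, had an unadjusted p under 0.05 as higher in leaf, as did 4.88% of all probe sets. No vascular marker of the 6 listed was measured. The makeup of the tissues in cell types was not tested.

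Likeness was measured as the root mean square difference over the 6 arrays, after centring each of the 11100 single-gene probe sets on its mean. It is a description, since 6 arrays of 2 tissues leave many probe sets alike. Nearest to psbA was psbD (0.25 log2, Pearson r = 0.986), followed by the nuclear genes AT1G35710 (0.34 log2, r = 0.975) and AT2G30740 (0.44 log2, r = 0.982). Nearest to psbD after psbA were AT1G35710 (0.39 log2, r = 0.966) and petN of the cytochrome b6f complex (0.44 log2, r = 0.974). Nearest to psbB were psbK (0.51 log2, r = 0.979), AT4G25330 (0.52 log2, r = 0.973) and psbH (0.54 log2, r = 0.964). Nearest to psbC were AT4G32630 (0.41 log2, r = 0.994), psaB of the photosystem I reaction centre (0.45 log2, r = 0.975) and psbZ (0.58 log2, r = 0.984). Around psbE and psbF, whose values lay between -0.93 and 0.66 log2, the nearest were nuclear probe sets at 0.087 log2 (AT1G01310) and 0.046 log2 (AT5G20500), with 0 plastid genes among the 3 nearest of either.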

How the data were processed

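The deposited table holds log2 values that the authors made with RMA, per the submitters' processing notes. That method adjusts for background, equalises the arrays by quantiles and combines the probes of a set. The version, the log base (taken as RMA's usual base) and the choice of listed probe sets are not given in the sources used here. Each of the 18874 listed probe sets had a 6-array median within 1e-06 of 0, so the values had been centred. The column of genomic DNA held 0 values and was not used. Per the labels, a 3' IVT kit was used on 250 ng of total RNA for each array. Such kits prime on poly(A) tails, which most plastid mRNAs lack or carry briefly, so the share of each plastid RNA that is labelled is not known.

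Without 64 control probe sets, 18810 were fitted with limma 3.58.1 (lmFit, eBayes, R 4.3.3), leaf minus root, no covariate, and Benjamini-Hochberg adjustment over all of them. The threshold was 0.05. Residual and prior degrees of freedom were 4 and 3.8. Of these probe sets 11100 carry 1 gene in the platform annotation, 350 several and 7360 none listed. The fit was also run on simulated data with independent normal noise on each array. That simulation does not cover a correlation between same-numbered arrays. Exact tests used SciPy 1.17.1 under Python 3.11.15. Alternatives were the replicate block, quantile normalization, median centring, array weights, a variance trend with robust fitting, other sets of probe sets and leaving out each array.

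Deviations from the tissue means correlated by 0.117, 0.366 and 0.247 between same-numbered arrays. Between leaf and root arrays of different number they correlated by -0.294 to 0.0638. As each same-number value exceeds 0.1, the numbers were taken to pair the arrays, although the meaning of a number is not stated. The main fit and the exact tests did not use this pairing, whereas the replicate block did.

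The members and gene lists were chosen with earlier results of these data known. Named genes are the members, their operon neighbours, in each list up to 3 called genes or else those with the smallest p, and the 3 nearest probe sets of each member. Genes of the rule that no result here turns on were left out, and psaA, rps14, atpA, atpB, atpE and ndhH were added after their values were seen.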

Additional observations from a re-analysis of the deposited data

How the results depend on the processing

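The number of core and antenna genes called higher in leaf was 2 as reported. It was 1 with the replicate block, where psbB (3.65 log2) did not pass, and 1 under robust fitting with a variance trend, where psbC (3.75 log2) did not. With 1 array left out it was 0 to 3, on fewer samples. In those fits the difference was 3.29 to 4.06 log2 for psbB, 3.43 to 4.36 for psbC, 1.71 to 3.29 for psbA, 1.99 to 3.28 for psbD, 0.031 to 0.62 for psbE and -0.0085 to 0.41 for psbF. Over all probe sets, robust fitting made 115 calls on the leaf side and 40 on the root side, where 52 and 12 are reported, and the cause was not tested. Leaving out 1 array made 7 to 28 calls on the leaf side and 0 to 5 on the root side. Differences between members turned in sign with an array left out for psbA against psbD (-0.28 to 0.12 log2), psbB against psbC (-0.60 to 0.40 log2) and psbE against psbF (-0.16 to 0.29 log2). The replicate block changed no other member's call, and quantile normalization, median centring, array weights and the 3 other choices of probe sets changed none. Signal levels are not given, so no filter on dim probe sets could be applied.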

Other observations

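Neighbours of other plastid transcription units were compared in the same way as those of psbB. These pairs were chosen after their values were seen and carry no test. The photosystem I reaction centre genes psaA and psaB are neighbours that are co-transcribed with rps14, a ribosomal protein gene, in land plants. The gene psaB stood at 2.86, 0.69 and 2.99 log2 on the leaf arrays and at -1.51, -0.69 and -1.15 log2 on the root arrays, a leaf minus root difference of 3.30 ± 0.59 log2 (SE). The gene psaA differed by 0.58 ± 0.32 log2 and rps14 by 0.23 ± 0.44 log2, and both overlapped between tissues. Taken per array, psaB minus psaA did not overlap, at 0.91 to 2.303 log2 in leaf and -1.38 to -0.36 log2 in root. For the ATP synthase neighbours atpB and atpE the differences were 3.16 ± 0.88 and 1.03 ± 0.31 log2. Taken per array, atpB minus atpE overlapped, at -0.10 to 2.48 log2 in leaf and -1.30 to 0.26 log2 in root. In limma over all probe sets, 0 of these 5 genes passed, and 3, psaB, atpB and atpE, had an unadjusted p under 0.05 as higher in leaf. Of all probe sets, 0.276% passed as higher in leaf and 4.88% had such an unadjusted p. Since the 5 were chosen by their values, their count cannot be read against these shares.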
